A study of Homo sapiens with 10 samples.

Results

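The 10 genes described here encode proteins of the nuclear lamina and of compacted chromatin: the lamins LMNB1, LMNB2 and LMNA, the membrane and lamina anchors LBR and TMPO, the high mobility group (HMG) proteins HMGB1, HMGB2 and HMGA1, and the heterochromatin proteins CBX5 and SUV39H1. They were chosen by symbol from 57736 rows of the deposited count table, each symbol matched 1 Ensembl gene, and all 10 passed the filter on low counts that left 16760 genes. RNA was sequenced from IMR90 human fetal lung fibroblasts, in 5 groups of 2 samples. Control cells are labelled with control siRNA and not as senescent, and the protocol pairs an empty control retrovirus with one expressing RAS, an oncogene that drives fibroblasts into lasting arrest. The other 4 groups are labelled senescent, and the column names of all 4 hold the word RAS, where those of control hold ctr. These were a senescent control with control siRNA, a METTL3 knockout, and the METTL3 knockout with a knock-in of either wild type or mutant METTL3. METTL3 carries the methyltransferase activity behind m6A, a modified base in messenger RNA. Cells received siRNA 4 days after the retrovirus and again the next day, when lentivirus carrying the wild type or mutant gene was added, and were harvested 48 hours later.

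Several facts limit these groups as models. The titles say knockout, but the protocol describes siRNA, and the word is kept here as the titles use it. The protocol text names METTL14 where the titles and column names give METTL3, and which METTL3 mutant was expressed is left unnamed there. Column names of the knockout samples hold the word vec and those of the senescent control do not, so a difference in lentivirus between these groups cannot be told apart from the METTL3 status. Each knock-in differs from the senescent control in siRNA, in the lentivirus named and in METTL3 level, which cannot be told apart either. Nothing in the labels says that the samples of a group were separate cultures, so each p-value measures the spread between the samples at hand, possibly technical only.

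As background, the nuclear lamina is a mesh of A-type and B-type lamin filaments under the inner nuclear membrane, where silent chromatin is tethered. LBR and the LAP2 proteins made from TMPO bind both lamins and chromatin, SUV39H1 places a repressive methyl mark on histone H3, and CBX5 (HP1 alpha) binds that mark. Senescent fibroblasts are known for loss of lamin B1 and HMGB2 and for compact heterochromatin foci in which HMGA1 and HP1 proteins gather. The measurements here are RNA levels, and neither proteins nor foci were measured.

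The sequence before the start site is shown for 4 genes that differed in how their RNA behaved: LMNB1, which fell the most on entry into senescence, LMNB2 and HMGB1, which fell less, and HMGA1, which did not pass the test there. Sequences are credited to RefSeq (GRCh38.p14), read 5′ to 3′ on the strand of the gene, and were limited to bases in no annotated exon. Capitals mark matches, on either strand, to CCAAT or to the GC box GGGCGG, some of which overlap each other.
LMNB1: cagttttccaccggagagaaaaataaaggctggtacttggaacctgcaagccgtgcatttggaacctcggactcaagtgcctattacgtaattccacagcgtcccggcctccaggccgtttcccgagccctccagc
LMNB2: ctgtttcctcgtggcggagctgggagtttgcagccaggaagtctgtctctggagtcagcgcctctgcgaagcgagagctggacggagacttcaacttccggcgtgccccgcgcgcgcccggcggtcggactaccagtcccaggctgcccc
HMGB1: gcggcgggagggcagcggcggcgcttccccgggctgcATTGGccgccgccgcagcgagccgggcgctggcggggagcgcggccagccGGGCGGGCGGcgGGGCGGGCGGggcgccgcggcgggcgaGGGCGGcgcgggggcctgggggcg
HMGA1: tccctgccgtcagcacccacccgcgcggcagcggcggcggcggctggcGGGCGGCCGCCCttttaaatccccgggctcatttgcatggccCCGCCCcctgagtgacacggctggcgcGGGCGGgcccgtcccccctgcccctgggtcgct

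The LMNB1 stretch lies at chr5:126776487-126776622 (plus strand), before a start 525 bases upstream of that of the GENCODE v29 principal transcript, since the window of the downstream start is exonic. The others lie at chr19:2456997-2457146 (minus strand) for LMNB2, chr13:30465243-30465392 (minus strand) for HMGB1 and chr6:34236723-34236872 (plus strand) for HMGA1. They hold 55.1% G and C for LMNB1, 67.3% for LMNB2, 90.0% for HMGB1 and 77.3% for HMGA1. The lack of capitals for LMNB1 and LMNB2 depends on which stretch was printed. The window of the downstream LMNB1 start, not printed, holds CCAAT at -138 and GC boxes at -237, -58, -33 and -9. The LMNB2 window holds a GC box at -29, past the end of the printed stretch. Of the 10 genes 9 had windows in the RefSeq table (19 windows), and HMGB2 had none. In the 250 bases upstream, over all windows of a gene and both strands, a GC box was found for all of the 9 genes except LBR, against 42.64% of all 35116 windows. CCAAT was found for LMNB1, LMNA, TMPO, HMGB1, HMGA1, CBX5 and SUV39H1, against 32.01% of all windows. The cell cycle homology letters TTTGAA were found for LMNB2 and HMGB1 (13.32% of windows). Letters of an E2F site (TTTCCCGC, TTTGGCGC, TTTCGCGC or TTTGCCGC) were found for LMNA alone (2.788% of windows), in a window 32134 bases upstream of its principal start. A gene with several windows had more chances of a match than a single window, and a match describes letters and no binding.

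Total counts ran from 16293975 to 23570266 per sample. METTL3 stood at 72.7 and 81.4 CPM (the usual scaling of counts by library total, with totals adjusted by TMM) in control, 47.3 and 57.3 in the senescent control and 23.2 and 28.9 in the knockout. In the knock-ins it stood at 58385 and 58125 CPM (wild type) and 114107 and 147774 CPM (mutant). There it took 5.87% and 5.86% (wild type) and 11.3% and 14.2% (mutant) of all counts. Knock-in METTL3 RNA thus lay far above its level in control. Where a knock-in is compared with another group, a return of METTL3 and an excess of it cannot be told apart. The 8 fibroblast markers were detected in every sample, with a summed level of 13670 to 16979 CPM in control, 9411 to 10126 in the senescent control, 9824 to 10395 in the knockout, 7686 to 8175 in the wild type and 5059 to 5721 in the mutant knock-in. The 5 leukocyte markers summed to 66.8 to 79.5 CPM outside the knock-ins and 157 to 177 within them, mostly CD68, with CD3E at 0 in every sample and PTPRC at 0 in control. Epithelial markers summed to 20.5 to 21.8 CPM in control and 3.73 to 12.5 elsewhere, with KRT19 at 19.3 to 21.1 CPM in control and 1.39 to 10.04 CPM elsewhere, and endothelial markers to 0.626 to 4.43 CPM. The part of these shifts in the results was not tested. The pair of control samples was less alike than the pairs of other groups, with a median chi-square per gene of 3.57 against 0.783 to 1.16.

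Nearly the whole set was lower in senescent cells. In the senescent control against control, 9 of the 10 genes fell and none rose, with LMNB1 at 4.76%, HMGB2 at 9.86% and TMPO at 21.9% of the control mean, and HMGA1 was the gene that did not pass the test. Fewer cells of a kind and less RNA per cell cannot be told apart in these bulk samples. The background was high: 45% of all genes tested were called in this comparison, 25.3% lower and 19.7% higher (edgeR quasi-likelihood test, adjusted p under 0.05, as for every call below). The fit pooled the spread of all groups, and the control pair was the most spread, so standard errors and adjusted p against control can be too small. With only the compared groups fitted, 5152 genes were called in this comparison, against 7549. The median log2 fold change of the 10 genes was -1.14, against -0.03 over all genes tested.

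A few of these genes stood higher in senescent cells with METTL3 knockout. In the knockout against the senescent control, LMNB1, HMGB2 and TMPO rose, HMGA1 fell, and the other 6 did not pass the test, where 15.8% of all genes were called (7.17% higher, 8.62% lower). With upper-quartile scaling 1452 genes were higher and 1204 lower, against 1202 and 1444. The median over the 10 genes was 0.17 on the log2 scale, against 0.01 over all genes. With 1 sample left out, 2 or 3 of these 4 calls held. TMPO lost its call without senescent control sample 1 (adjusted p = 0.153), without knockout sample 1 (0.136) and without knockout sample 2 (0.0549), in a range of 3.94e-05 to 0.153 over its alternatives. HMGA1 lost its call without any 1 of the 4 samples (adjusted p 0.059 to 0.102, range 1.52e-06 to 0.102 over its alternatives).

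Most of the set was lower in both knock-ins than in the knockout. With wild type METTL3, 8 genes fell and none rose, where 33.3% of all genes were called (14.8% lower, 18.5% higher). With mutant METTL3, 9 fell and none rose, where 48.4% were called (24.3% lower, 24.1% higher). The medians of the 10 genes were -0.50 and -0.59, against 0.02 and 0.01 over all genes. These comparisons share the knockout samples, so they are not independent of each other, and the senescent control samples are likewise shared by the comparisons above. Between the knock-ins, LMNA, HMGA1 and CBX5 were lower with the mutant and none was higher, where 12.5% of all genes were called (7.39% lower, 5.16% higher). METTL3 took 11.3% and 14.2% of all counts with the mutant, against 5.87% and 5.86% with the wild type. In every comparison between the knock-ins, the mutation and the amount of METTL3 RNA therefore cannot be told apart. With upper-quartile scaling the split over all genes in that comparison was 1056 higher and 773 lower, against 865 and 1238. For the mutant knock-in against the knockout it was 4382 higher and 3603 lower, against 4046 and 4073.

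**Figure D1:**
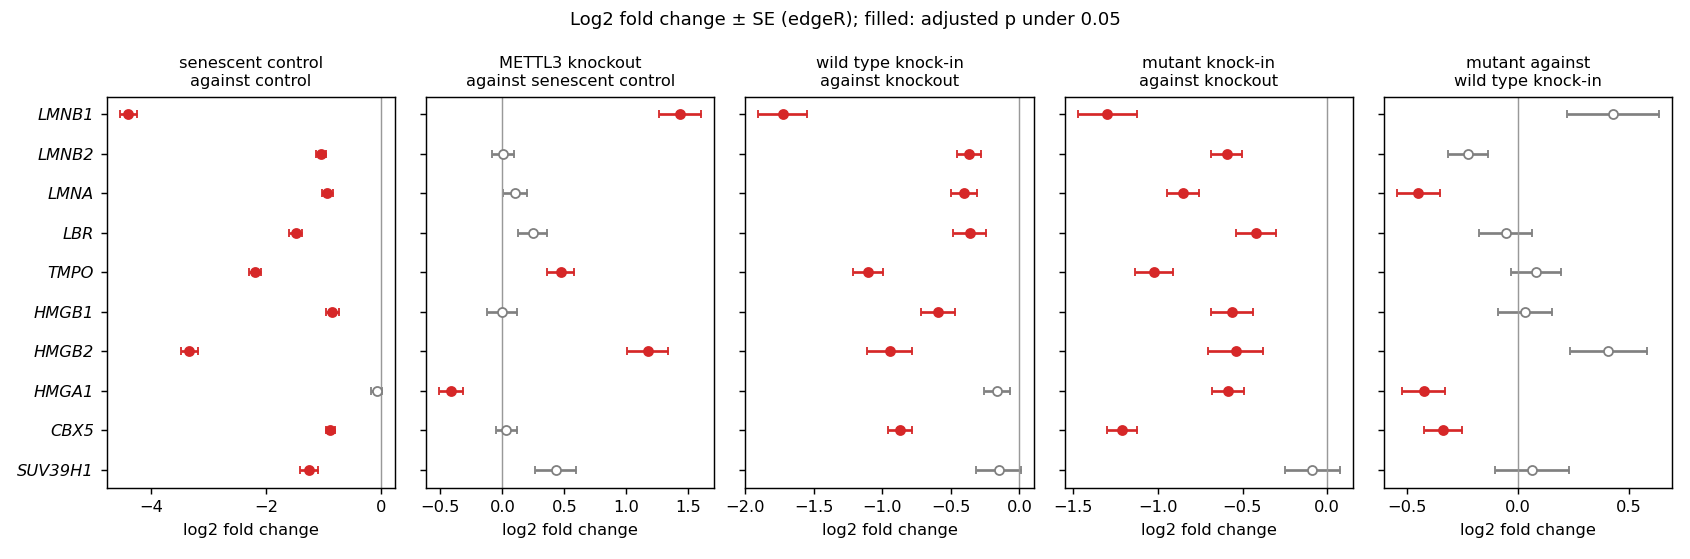
Log2 fold change of each gene with its standard error (horizontal bars) in 5 comparisons. Filled red points passed an adjusted p of 0.05 and open grey points did not. LMNB1 and HMGB2 lie farthest from 0 in the senescent control against control (-4.39 and -3.33) and on the positive side in the knockout against the senescent control (1.43 and 1.17). The horizontal scale differs between panels.

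LMNB1, which encodes lamin B1, stood at 63.6 and 55.3 CPM in control and at 2.96 and 2.69 CPM in the senescent control. It was at 8.20 and 7.09 CPM in the knockout, 2.32 and 2.28 in the wild type knock-in and 3.52 and 2.66 in the mutant knock-in. Control was far above every other sample, the knockout samples stood above the remaining senescent samples, and senescent control and mutant knock-in overlapped. The log2 fold change was -4.39 (SE 0.15, edgeR adjusted p = 9.36e-10) in the senescent control against control, which placed LMNB1 lower than all but 0.143% of genes tested. It rose by 1.43 (SE 0.17, adjusted p = 0.000125) in the knockout, to 12.9% of the control mean. It fell by 1.73 (SE 0.18, adjusted p = 2.25e-05) in the wild type and by 1.30 (SE 0.17, adjusted p = 7.73e-05) in the mutant knock-in against the knockout. The difference between the knock-ins, 0.43 (SE 0.21, adjusted p = 0.191), did not pass the test. Against control, the knockout was still lower by a log2 fold change of -2.96 (SE 0.13). These levels rest on 38 to 142 counts per senescent sample, against 1234 and 1452 in control, so counting error is larger for LMNB1 in senescent cells than for the other lamins.

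LMNB2, the second B-type lamin, was expressed at 146 and 132 CPM in control, 67.1 and 68.2 in the senescent control and 67.2 and 68.4 in the knockout. It stood at 50.6 and 54.2 CPM in the wild type and 46.2 and 43.6 CPM in the mutant knock-in. Its senescent control and knockout samples overlapped, and all 4 knock-in samples were below them. LMNB2 fell by 1.04 (SE 0.09, adjusted p = 1.77e-06) with senescence, and its log2 fold change in the knockout was 0.0030 (SE 0.09, adjusted p = 0.99). It fell by 0.37 (SE 0.09, adjusted p = 0.00694) in the wild type and by 0.59 (SE 0.09, adjusted p = 0.000198) in the mutant knock-in against the knockout. The call in the wild type knock-in was lost without its sample 1 (adjusted p = 0.06, range 0.000326 to 0.06 over its alternatives).

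LMNA encodes lamins A and C, the A-type lamins. It stood at 421 and 366 CPM in control, 209 and 203 in the senescent control and 224 and 218 in the knockout, then at 158 and 175 CPM in the wild type and 125 and 119.7 CPM in the mutant knock-in. No group overlapped another, although the senescent control and the knockout lay close together. LMNA fell by 0.93 (SE 0.10, adjusted p = 9.35e-06) with senescence, and differed by 0.10 (SE 0.10, adjusted p = 0.551) in the knockout. It fell by 0.40 (SE 0.10, adjusted p = 0.00623) in the wild type and by 0.85 (SE 0.10, adjusted p = 2.37e-05) in the mutant knock-in against the knockout. The mutant knock-in was lower than the wild type knock-in by a log2 fold change of -0.45 (SE 0.10, adjusted p = 0.0132), a call lost without wild type sample 2, mutant sample 1 or mutant sample 2 (adjusted p 0.0634 to 0.158, range 0.000275 to 0.158 over its alternatives). The fall in the wild type knock-in was lost without wild type sample 1 (adjusted p = 0.0651, range 0.000102 to 0.0651).

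**Figure D2:**
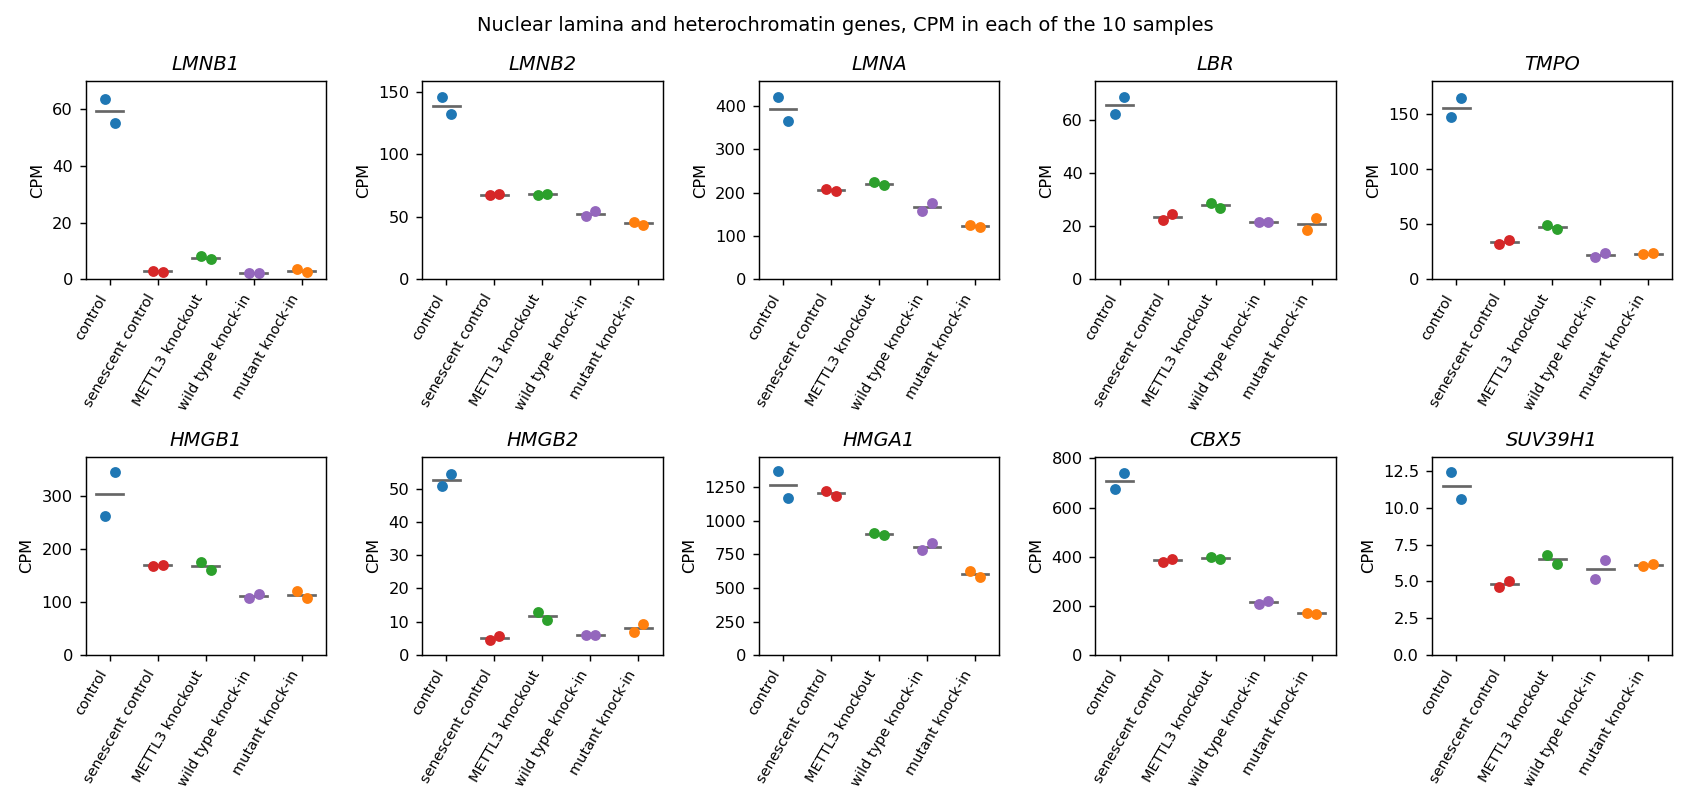
Level of each of the 10 genes in CPM on a linear axis from 0, with 1 point per sample and a grey line at the mean of each group of 2 samples. LMNB1, HMGB2 and TMPO drop from control to the senescent control and stand above it in the knockout, and the HMGA1 senescent control samples lie within the span of the control samples.

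The anchors of the inner nuclear membrane also fell. LBR, the lamin B receptor, which holds lamin B and HP1 and also has a sterol reductase domain, stood at 62.3 and 68.5 CPM in control, 22.3 and 24.6 in the senescent control, 28.9 and 26.8 in the knockout, 21.6 and 21.6 in the wild type and 18.5 and 23.1 in the mutant knock-in. The 8 senescent samples spanned 18.5 to 28.9 CPM, with the knockout samples highest and the mutant knock-in samples overlapping both the senescent control and the wild type knock-in. LBR fell by 1.48 (SE 0.11, adjusted p = 7.19e-07) with senescence, and its difference of 0.24 (SE 0.12, adjusted p = 0.19) in the knockout did not pass the test. Against the knockout it fell by 0.36 (SE 0.12, adjusted p = 0.0312) in the wild type and by 0.42 (SE 0.12, adjusted p = 0.0117) in the mutant knock-in. The first of these calls was lost without any 1 of the 4 samples (adjusted p 0.0631 to 0.16) and with DESeq2 (adjusted p = 0.0548; range 0.00376 to 0.16 over all alternatives). The second was lost without knockout sample 1 (0.0719) or mutant sample 1 (0.125, range 0.000794 to 0.125).

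TMPO, whose LAP2 isoforms bind lamins and the chromatin protein BANF1, stood at 147 and 164 CPM in control, 32.2 and 35.9 in the senescent control and 49.0 and 45.4 in the knockout. It was at 20.01 and 23.7 CPM in the wild type and 22.9 and 23.6 CPM in the mutant knock-in. The knock-in groups overlapped each other and lay below every senescent control sample, which in turn lay below the knockout. TMPO fell by 2.19 (SE 0.11, adjusted p = 1.39e-08) with senescence and rose by 0.47 (SE 0.11, adjusted p = 0.00985) in the knockout. It fell by 1.11 (SE 0.11, adjusted p = 1.74e-05) in the wild type and by 1.02 (SE 0.11, adjusted p = 1.68e-05) in the mutant knock-in against the knockout. Both knock-ins were also lower than the senescent control, by log2 fold changes of -0.64 (SE 0.11, adjusted p = 0.000696) and -0.55 (SE 0.11, adjusted p = 0.00114).

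The HMG proteins differed among themselves. HMGB2, a DNA-bending protein abundant in dividing cells, stood at 50.9 and 54.2 CPM in control and at 4.66 and 5.71 CPM in the senescent control. It was at 12.99 and 10.5 CPM in the knockout, 6.16 and 6.02 in the wild type and 6.92 and 9.25 in the mutant knock-in. No groups overlapped, and the knockout was the highest of the 4 senescent groups. HMGB2 fell by 3.33 (SE 0.15, adjusted p = 1.04e-08) with senescence and rose by 1.17 (SE 0.17, adjusted p = 0.000465) in the knockout. It fell by 0.95 (SE 0.16, adjusted p = 0.000908) in the wild type and by 0.54 (SE 0.16, adjusted p = 0.0151) in the mutant knock-in against the knockout, the second of which was lost without knockout sample 1 (adjusted p = 0.119) or mutant sample 1 (0.148, range 0.000594 to 0.148 over its alternatives). Against the senescent control it was higher in the mutant knock-in by 0.63 (SE 0.18, adjusted p = 0.00928), a call lost without senescent control sample 1 (0.0987) or mutant sample 2 (0.196, range 0.00239 to 0.196).

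HMGB1, its relative, which also acts as an alarm signal once outside the cell, stood at 261 and 343 CPM in control, 168 and 169.9 in the senescent control and 176 and 160.4 in the knockout. It was at 108 and 115 CPM in the wild type and 119.8 and 108 CPM in the mutant knock-in. The senescent control lay within the span of the knockout, the knock-ins overlapped each other below them, and the control samples were the most spread. HMGB1 fell by 0.84 (SE 0.12, adjusted p = 0.000146) with senescence, to 55.8% of the control mean, and differed by -0.0049 (SE 0.12, adjusted p = 0.987) in the knockout. It fell by 0.59 (SE 0.12, adjusted p = 0.00266) in the wild type and by 0.56 (SE 0.12, adjusted p = 0.00234) in the mutant knock-in against the knockout. The table has 47 rows for HMGB1 pseudogenes, which together held 2.16% as many counts as HMGB1. The processing notes name RSEM, and how it shared reads that map to several genes was not checked here. The HMGB1 level is therefore uncertain to that extent or more.

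HMGA1, an architectural protein that binds AT-rich DNA, stood at 1369 and 1168 CPM in control, 1225 and 1186 in the senescent control, 911 and 897 in the knockout, 781 and 836 in the wild type and 626 and 579 in the mutant knock-in. The senescent control lay within the span of the control samples, and from there each group stood below the one before it. The difference with senescence was -0.07 (SE 0.09, adjusted p = 0.554). HMGA1 fell by 0.42 (SE 0.09, adjusted p = 0.0103) in the knockout against the senescent control. Against the knockout, the wild type knock-in differed by -0.16 (SE 0.09, adjusted p = 0.218), and in the mutant knock-in it fell by 0.59 (SE 0.10, adjusted p = 0.000327). Mutant and wild type knock-ins differed by -0.42 (SE 0.10, adjusted p = 0.0154), which was lost without wild type sample 2, mutant sample 1 or mutant sample 2 (adjusted p 0.0577 to 0.159, range 0.000234 to 0.159 over its alternatives). Against the senescent control, HMGA1 was lower in the wild type knock-in by -0.58 (SE 0.10) and in the mutant knock-in by -1.0009 (SE 0.10), with adjusted p of 0.000504 and 4.56e-06.

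CBX5, the reader HP1 alpha, stood at 677 and 740.0 CPM in control, 379 and 393 in the senescent control and 397 and 391 in the knockout. It was at 208 and 222 CPM in the wild type and 171 and 169 CPM in the mutant knock-in. Senescent control and knockout overlapped, and the wild type and then the mutant knock-in lay well below them without overlap. CBX5 fell by 0.88 (SE 0.09, adjusted p = 5.74e-06) with senescence and differed by 0.03 (SE 0.08, adjusted p = 0.865) in the knockout. It fell by 0.87 (SE 0.09, adjusted p = 1.57e-05) in the wild type and by 1.21 (SE 0.09, adjusted p = 7.54e-07) in the mutant knock-in against the knockout, which left it at 30.3% and 24.03% of the control mean. The mutant was lower than the wild type knock-in by -0.34 (SE 0.09, adjusted p = 0.0256), a call lost without any 1 of the 4 samples (adjusted p 0.0518 to 0.236, range 0.00251 to 0.236 over its alternatives).

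SUV39H1, the methyltransferase whose mark CBX5 binds, was the least counted of the 10 genes over all samples, with 1373 counts. It stood at 12.4 and 10.6 CPM in control, 4.61 and 5.02 in the senescent control, 6.81 and 6.21 in the knockout, 5.19 and 6.43 in the wild type and 6.02 and 6.21 in the mutant knock-in. Control was above all senescent samples, the senescent control was below the other senescent samples, and the knockout and the knock-ins overlapped. SUV39H1 fell by 1.25 (SE 0.15, adjusted p = 4.21e-05) with senescence. In the knockout against the senescent control it differed by 0.43 (SE 0.16, adjusted p = 0.101), and against the knockout by -0.15 (SE 0.16, adjusted p = 0.511) in the wild type and by -0.09 (SE 0.16, adjusted p = 0.686) in the mutant knock-in. Each of these missed the threshold, which does not show that the levels were equal.

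**Figure D3:**
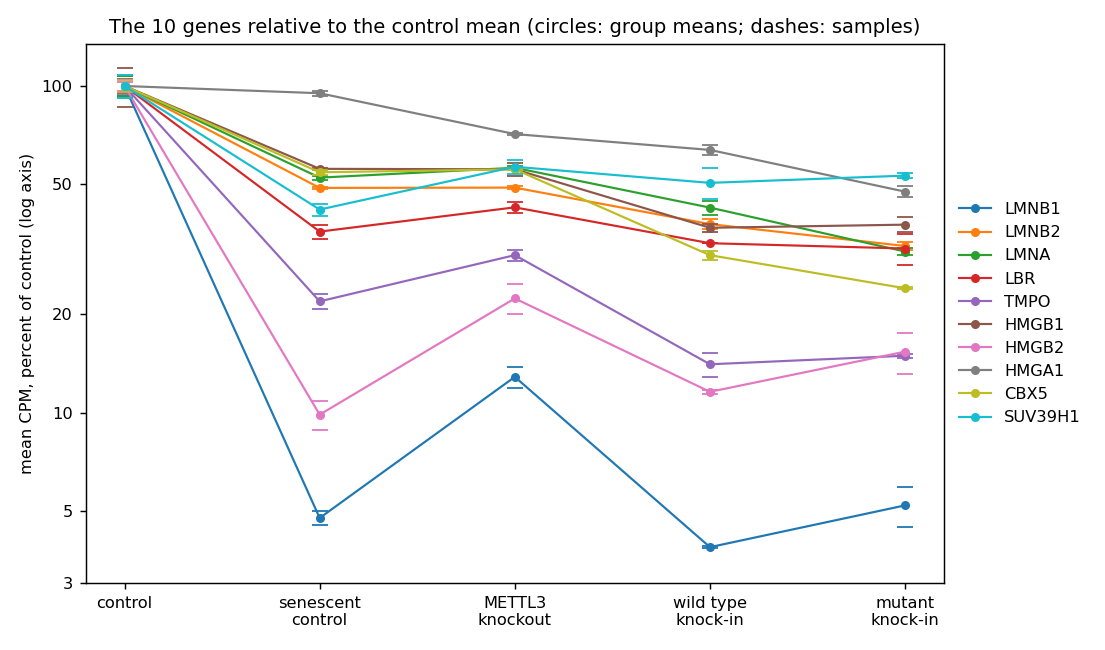
Mean CPM of each gene as a percentage of its control mean on a log axis, in the 5 groups, with dashes for the single samples. Lines join the groups of 1 gene to make it traceable and stand for no time course. The senescent control runs from 4.76% for LMNB1 to 95.0% for HMGA1, and the mutant knock-in from 5.20% for LMNB1 to 53.2% for SUV39H1.

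Set against control directly, the METTL3 knockout remained below control for all 10 genes, none of which rose, where 46.4% of all genes were called (26.7% lower, 19.7% higher). With upper-quartile scaling the split over all genes was 3988 higher and 3540 lower, against 3300 and 4472. Levels in the knockout ran from 12.9% of the control mean for LMNB1 and 22.4% for HMGB2 to 71.3% for HMGA1. LMNB1, HMGB2 and TMPO, the genes that rose against the senescent control, still differed from control by -2.96 (SE 0.13), -2.16 (SE 0.14) and -1.72 (SE 0.10) on the log2 scale.

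Comparisons of either knock-in with the senescent control mix differences in siRNA, lentivirus and METTL3 level, which cannot be told apart. Against the senescent control, the wild type knock-in was lower for LMNB2, LMNA, TMPO, HMGB1, HMGA1 and CBX5 and higher for none of the 10, where 39.9% of all genes were called (19.1% lower, 20.8% higher). LMNB2 there had a log2 fold change of -0.37 (SE 0.09) and CBX5 of -0.84 (SE 0.09), the largest fall. The LMNA call (-0.30, SE 0.10, adjusted p = 0.0233) was lost with upper-quartile scaling (0.052) and without senescent control sample 1 (0.104), senescent control sample 2 (0.0734) or wild type sample 1 (0.175, range 0.00137 to 0.175 over its alternatives). The LMNB2 call was lost without wild type sample 1 (0.0581, range 0.00035 to 0.0581). LMNB1 differed by -0.29 (SE 0.20, adjusted p = 0.28), LBR by -0.12 (SE 0.12), HMGB2 by 0.22 (SE 0.18) and SUV39H1 by 0.28 (SE 0.17), none past the threshold.

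In the mutant knock-in against the senescent control, LMNB2, LMNA, TMPO, HMGB1, HMGA1 and CBX5 were lower and HMGB2 was higher, where 53.3% of all genes were called (26.3% lower, 27% higher). Log2 fold changes were -1.18 (SE 0.09) for CBX5, -1.0009 (SE 0.10) for HMGA1 and -0.75 (SE 0.10) for LMNA. LMNB1, by contrast, differed by 0.14 (SE 0.20, adjusted p = 0.588). The median over the 10 genes was -0.34 in the wild type and -0.56 in the mutant knock-in, against 0.03 and 0.04 over all genes.

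Ratios of counts within a sample do not depend on how libraries were scaled, and they were used to compare a gene's change with that of a relative. Per 100 LMNA counts, LMNB1 had 15.1 and 15.1 counts in control, 1.42 and 1.33 in the senescent control, 3.65 and 3.26 in the knockout, 1.46 and 1.30 in the wild type and 2.81 and 2.22 in the mutant knock-in. The knockout samples were the highest of the senescent samples, and the mutant knock-in samples lay between them and the rest. LMNB2 per 100 LMNA counts, in contrast, spanned 29.9 to 36.9 over all 10 samples. Its 36.9 and 36.5 in the mutant knock-in lay above all 8 other samples, and the knockout (29.9 and 31.4) overlapped the wild type knock-in (31.9 and 30.9).

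Per 100 HMGB1 counts, HMGB2 had 19.5 and 15.8 counts in control, 2.78 and 3.36 in the senescent control, 7.38 and 6.57 in the knockout, 5.71 and 5.24 in the wild type and 5.78 and 8.57 in the mutant knock-in. The senescent control samples were the lowest, and the mutant knock-in samples overlapped the knockout. Per 100 LMNA counts, LBR had 10.6 to 19.3 counts over all samples. Values of these ratios depend on gene length, so only their change between samples is compared, and with 2 samples a group they were not tested.

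**Figure D4:**
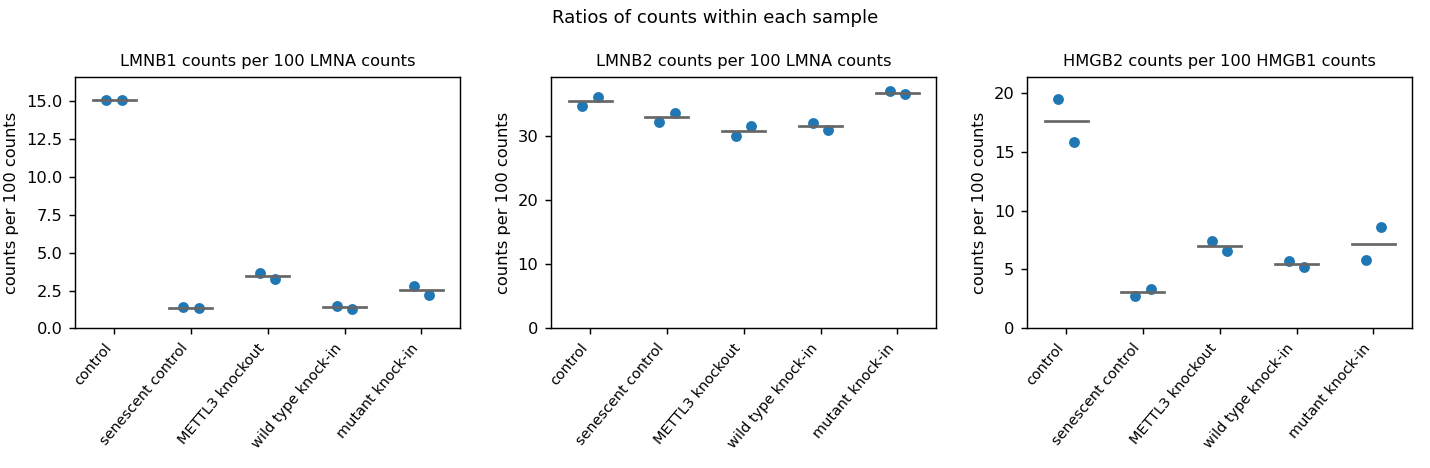
Counts of LMNB1 and LMNB2 per 100 LMNA counts and of HMGB2 per 100 HMGB1 counts, 1 point per sample with a grey line at the group mean, on linear axes from 0. LMNB1 against LMNA drops from 15.1 in control to 1.33 and 1.42 in the senescent control, while LMNB2 against LMNA lies between 29.9 and 36.9.

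Other genes of the nuclear envelope and of lamin processing moved less uniformly. Of 17, 9 fell and 3 rose with senescence (median log2 fold change -0.51, against -0.03 over all genes), where 45% of all genes were called. In the knockout SUN1 and SUN2, which span the inner membrane, and TMEM43 rose, and ZMPSTE24 fell, where 15.8% of all genes were called. Between 2 and 9 of the 17 passed over the alternatives of that comparison. The TMEM43 call was lost without senescent control sample 1, knockout sample 1 or knockout sample 2 (adjusted p 0.124 to 0.247, range 6.97e-05 to 0.247), and the SUN1 call without senescent control sample 1 (0.0699) or knockout sample 2 (0.0597, range 1.58e-06 to 0.0699). ZMPSTE24, the protease that matures prelamin A, rose by 0.50 (SE 0.12, edgeR adjusted p = 0.00654) with senescence, from 153 and 209 CPM to 246 and 264 CPM. It fell by 1.06 (SE 0.13, adjusted p = 0.00014) in the knockout, to 117 and 128 CPM, and its call in the first comparison was lost without senescent control sample 2 (adjusted p = 0.0514) and with only the compared groups fitted (0.0579, range 7.19e-09 to 0.0579 over its alternatives). NRM, an inner membrane protein, fell by 1.57 (SE 0.13) with senescence, from 25.2 and 21.5 CPM to 7.51 and 8.17 CPM. SYNE1 and SYNE2, the nesprins that join the nucleus to the cytoskeleton, rose in the mutant knock-in against the knockout by 1.12 (SE 0.21, adjusted p = 0.00177) and 1.22 (SE 0.20, adjusted p = 0.000581). SYNE1 reached 601 and 714.5 CPM there, against 299 and 304 CPM in the knockout, and SYNE2 43.6 and 52.6 CPM against 21.9 and 19.3. With the wild type knock-in against the knockout, EMD, SUN1, SUN2 and ICMT fell and ANKLE2 and FNTA rose, beside 33.3% of all genes called. That count of 6 ran from 3 to 9 over the alternatives: SUN2 (adjusted p up to 0.143, range 0.0017 to 0.143) and FNTA (up to 0.217, range 0.00164 to 0.217) lost their calls with DESeq2 and without any 1 of the 4 samples, and EMD without knockout sample 1 (0.052, range 0.000456 to 0.052). With the mutant, 6 fell and ANKLE2, SYNE1 and SYNE2 rose, a share of the 17 close to the 48.4% of all genes called.

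Heterochromatin writers and readers other than CBX5 and SUV39H1 moved in both directions. Of 19 tested, 9 fell and 2 rose with senescence (median -0.25), where 45% of all genes were called. The share of all genes called in the knockout against the senescent control was 15.8%. In the knockout CHAF1B rose and LRWD1 fell, a count of 2 that ran from 0 to 8 over the alternatives. The CHAF1B call was lost with DESeq2 (adjusted p = 0.0615) and without any 1 of the 4 samples (0.0976 to 0.21, range 0.00633 to 0.21), and the LRWD1 call without senescent control sample 1, senescent control sample 2 or knockout sample 2 (adjusted p 0.0601 to 0.102, range 0.00022 to 0.102). In each knock-in against the knockout, SETDB1, DAXX, ATF7IP and CHAF1B rose, and the genes that fell included CBX3, EHMT2 and TRIM28, with HELLS also lower in the wild type and CBX1 in the mutant. The share of all genes called was 33.3% with the wild type and 48.4% with the mutant. With the wild type, the 9 calls ran from 5 to 10 over the alternatives. EHMT2 lost its call with DESeq2 and without any 1 of the 4 samples (adjusted p up to 0.107, range 0.00559 to 0.107), and TRIM28 without any 1 of them (up to 0.17, range 0.000793 to 0.17). CBX3 lost its call without knockout sample 1, knockout sample 2 or wild type sample 1 (up to 0.132, range 3.35e-05 to 0.132), and HELLS without knockout sample 1 or wild type sample 2 (up to 0.0788, range 6.19e-11 to 0.0788). With the mutant, CBX1 (0.0569, range 0.000446 to 0.0569) and DAXX (0.0522, range 3.04e-05 to 0.0522) lost theirs without knockout sample 1. CHAF1B, a subunit of the histone chaperone CAF-1, fell by 2.69 (SE 0.20, adjusted p = 5.62e-07) with senescence, from 17.6 and 14.2 CPM to 2.25 and 2.65 CPM. Unlike the 10 genes, it was higher in both knock-ins than in the knockout, by 1.01 (SE 0.20, adjusted p = 0.00203) and 1.2005 (SE 0.20, adjusted p = 0.000368). ATF7IP, a partner of the methyltransferase SETDB1, rose by 0.95 (SE 0.11) in the wild type and by 1.32 (SE 0.11) in the mutant knock-in, where it stood at 194 and 219 CPM against 84.8 and 80.3 CPM in the knockout. With senescence DNMT1, the maintenance DNA methyltransferase, fell by 1.0498 (SE 0.09), CHAF1A by 1.24 (SE 0.12) and the remodeller HELLS by 1.30 (SE 0.21), and ATRX rose by 0.91 (SE 0.14).

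Among 7 other HMG proteins, HMGB3, HMGN1 and HMGN2 fell and HMGA2 rose with senescence, beside 45% of all genes called. HMGN2, which binds nucleosomes, fell by 1.85 (SE 0.09), and HMGB3 by 1.80 (SE 0.10). HMGA2, the closest relative of HMGA1, rose by 0.78 (SE 0.11, adjusted p = 0.000164), from 799.9 and 1025 CPM to 1578 and 1557 CPM. It fell by 0.93 (SE 0.11, adjusted p = 0.000162) in the knockout, to 817.5 and 823 CPM, and by 0.69 (SE 0.11, adjusted p = 0.00035) in the mutant knock-in against the knockout. HMGA1 and HMGA2 thus fell together in the knockout, and in the senescent control against control HMGA2 alone of the pair passed the test. Over all genes 15.8% were called in the knockout against the senescent control and 33.3% in the wild type knock-in against the knockout. HMGB3 and HMGN2 rose in the knockout, calls lost for HMGB3 with no filter (adjusted p = 0.0812), with DESeq2 (0.139) and without any 1 of the 4 samples (0.123 to 0.166, range 0.00797 to 0.166), and without senescent control sample 1 or 2 or knockout sample 1 for HMGN2 (0.0613 to 0.105, range 4.29e-06 to 0.105). With the mutant knock-in 6 of the 7 fell against the knockout, where 48.4% of all genes were called, a count that ran from 4 to 6 over the alternatives. HMGN4 lost its call with upper-quartile scaling, with DESeq2 and without knockout sample 1, knockout sample 2 or mutant sample 2 (adjusted p up to 0.128, range 0.0136 to 0.128), and HMGN3 without knockout sample 1 or mutant sample 2 (up to 0.0644, range 5.22e-05 to 0.0644). With the wild type HMGB3, HMGN1 and HMGN2 fell, and HMGB3 lost its call with no filter (0.0836), with DESeq2 (0.136) and without any 1 of the 4 samples (0.0603 to 0.104, range 0.0224 to 0.136). HMGN5, a nucleosome-binding protein counted at 0.744 and 1.52 CPM in control and 3.002 and 2.295 CPM in the knockout, was higher in the knockout than in control by 1.22 (SE 0.31, adjusted p = 0.00761).

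Of 6 chromatin factors linked to senescence foci (the HIRA complex, ASF1A and the macroH2A histones), HIRA and MACROH2A2 fell with senescence, where 45% of all genes were called. None of the 6 passed in the knockout against the senescent control, where 15.8% of all genes were called. MACROH2A2 fell by 1.48 (SE 0.21, adjusted p = 0.000135), from 14.2 and 10.6 CPM to 4.66 and 4.25 CPM. Of 6 Polycomb repressive complex subunits, EZH2, RBBP4 and RBBP7 fell with senescence and none rose, where 45% of all genes were called (25.3% lower). EZH2, the catalytic subunit, fell by 2.55 (SE 0.12, adjusted p = 1.16e-08), from 27.2 and 27.2 CPM to 4.33 and 4.93 CPM. It rose by 0.80 (SE 0.13, adjusted p = 0.000473) in the wild type and by 1.36 (SE 0.12, adjusted p = 4.44e-06) in the mutant knock-in against the knockout, in the direction opposite to LMNB1, TMPO and HMGB2. Its rise in the knockout (0.45, SE 0.14, adjusted p = 0.0458) was lost under 7 of 12 alternatives, among them each of the 4 samples left out (adjusted p up to 0.277, range 0.0318 to 0.277).

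Genes of cell division moved beside LMNB1, HMGB2 and TMPO with senescence, in the knockout against the senescent control, and in the knock-ins against the knockout. Of 15 division genes, all fell with senescence (median -2.66), 12 rose and none fell in the knockout (median 0.95), and 13 and 14 fell in the wild type and mutant knock-ins against the knockout. Over all genes, 25.3% were lower with senescence, 7.17% higher in the knockout, and 14.8% and 24.3% lower in the knock-ins. The count of 12 ran from 9 to 14 over the alternatives: MCM5 (adjusted p up to 0.198, range 0.00265 to 0.198) lost its call with DESeq2 and without any 1 of the 4 samples, PCNA (up to 0.246, range 9.41e-05 to 0.246) without any 1 of them, and RRM2 (up to 0.215, range 0.00163 to 0.215) without senescent control sample 1 or 2 or knockout sample 1. Their summed level was 1327 and 1513 CPM in control, 227 and 243 in the senescent control, 466 and 407 in the knockout, 172 and 171 in the wild type and 194 and 195 in the mutant knock-in. The proliferation marker MKI67 stood at 211 and 345 CPM in control, 34.2 and 36.9 in the senescent control and 104 and 83.1 in the knockout. PLK1, a mitotic kinase, fell by 3.26 (SE 0.16) with senescence and rose by 0.95 (SE 0.17, adjusted p = 0.00274) in the knockout. Log2 fold changes with senescence were -3.07 (SE 0.14) for CCNA2, a cyclin, -2.99 (SE 0.11) for RRM2 and -2.98 (SE 0.13) for TYMS, enzymes of nucleotide supply, and -2.86 (SE 0.14) for BUB1, a spindle checkpoint kinase. In the knockout against the senescent control they were 1.31 (SE 0.14), 0.43 (SE 0.11), 0.99 (SE 0.14) and 1.07 (SE 0.15) in the same order, each past the threshold. The part of cell division in the changes of the 10 genes was not tested. The summed level and LMNB1 were highest in control and next highest in the knockout. Against the senescent control, 7 division genes were lower and 1 higher in the wild type knock-in, and 8 lower and 2 higher in the mutant. Over all genes, 19.1% and 26.3% were lower there, and 20.8% and 27% higher. HMGB2 stood at 6.16 and 6.02 CPM in the wild type and 6.92 and 9.25 in the mutant knock-in, above the senescent control (4.66 and 5.71).

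**Figure D5:**
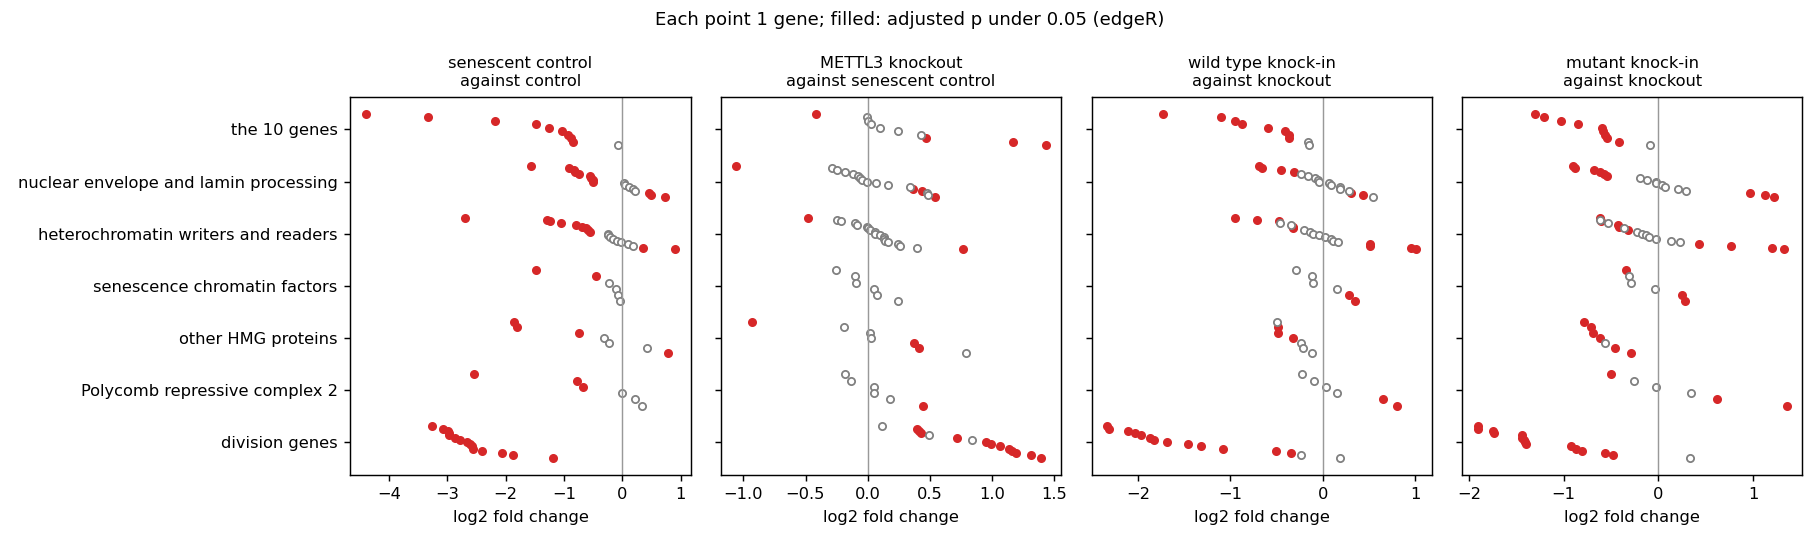
Log2 fold changes of the genes of 7 lists (rows) in 4 comparisons (panels), 1 point per gene, filled where the adjusted p was under 0.05. All 15 division genes lie below 0 in the senescent control against control, and in the knockout against the senescent control the 12 that were called lie above 0. The horizontal scale differs between panels.

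Among the 10 genes, levels over the 10 samples were most alike for LMNB2 and LMNA (Pearson r = 0.98 of log2 CPM) and least alike for HMGA1 and SUV39H1 (r = 0.36). Of all genes tested, those with the pattern most like LMNB1 were APOBEC3B, ATOH8 and RAD1 (each r = 0.99). For HMGB2 they were PRDM8, MATN2 and TRAIP, for TMPO DKK1, CCNB1 and KIF22, and for LBR DNAJC9, H2AZ1 and GMNN. LMNB2 was nearest to ACTN4, NLRP1 and TTC39C, LMNA to TPGS2, LASP1 and EIF4B, and CBX5 to KPNA2, TPM4 and EPHA4. HMGB1 was nearest to PRTFDC1, PSIP1 and PRKAR2B, SUV39H1 to MCUB, FANCG and SLFN11, and HMGA1 to the translation and folding factors EIF4A1, EIF5A and CCT3. These values are descriptions over 10 samples that share libraries and scaling, and much of each rests on the gap between control and senescent cells.

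Some of the genes overlap others in the annotation, and whether the counting used strand is unknown here (not given in the sources used here). LMNB2 shares exon sequence with TIMM13, a mitochondrial import factor with 33.3% as many counts as LMNB2. TIMM13 differed by -0.20 (SE 0.10, adjusted p = 0.133) with senescence, where LMNB2 fell by 1.04. It was lower, as LMNB2 was, in the mutant knock-in against the knockout (-0.35, SE 0.11, adjusted p = 0.0179) and against the senescent control (-0.57, SE 0.11, adjusted p = 0.000717), and in the knockout against control (-0.42, SE 0.10, adjusted p = 0.00577). Reads of the part shared by LMNB2 and TIMM13 cannot be told apart here. TMPO overlaps the antisense gene TMPO-AS1, which held 2.81% as many counts as TMPO. TMPO-AS1 fell by 3.57 (SE 0.30) with senescence and rose by 1.56 (SE 0.35, adjusted p = 0.00948) in the knockout, and without strand its reads and those of TMPO cannot be told apart.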

How the data were processed

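The sequenced material was RNA purified with an RNeasy kit, treated with DNase I and made into KAPA RNA HyperPrep libraries, per the labels' protocols. Bowtie2 and RSEM 1.2.12 were used with hg19, per the submitters' processing notes. For 10 samples the authors deposited raw counts per Ensembl gene, whole numbers with no normalization. Annotation and strand setting are unknown here.

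The deposited counts went into edgeR (4.0.16, R 4.3.3) with TMM scaling and filterByExpr (minimum count 10). All 10 samples shared a model with 1 mean per group, leaving 5 residual degrees of freedom, and 8 comparisons were tested two-sided by robust quasi-likelihood, with p-values adjusted by Benjamini-Hochberg across 16760 genes. Each standard error (SE) is the fold change over the root of F, and pools the spread of all groups. CPM values use TMM-scaled totals. The procedure was run on counts simulated with the same spread for every gene and group, for the knockout against the senescent control and the senescent control against control. In that order it recovered 52.2% and 44.8% of 1.5-fold changes, 74.6% and 85.1% of 2-fold changes and 92.4% and 93.9% of 4-fold changes. False calls numbered 10 and 9. The simulation did not include the larger spread of the control pair, so it does not show how the tests perform there. The words rose and fell mean an adjusted p under 0.05. The 10 genes and the other lists were chosen with earlier results of these data known. All 10 genes are named in every comparison. From the other lists the text names genes past the threshold with a log2 fold change of at least 1 in any comparison (at most 6 a list). Genes named beside small counts or lost calls (SUN1, LRWD1, RBBP4 and the like), TIMM13 and TMPO-AS1 fall outside that rule and were chosen after their values were seen. Likeness names the 3 genes with the highest Pearson r. UHRF1 and PECAM1 matched no row. The values of 1 gene of the heterochromatin list are not reported here. Alternatives were upper-quartile and RLE scaling, METTL3 left out of the totals, no filter, DESeq2 1.42.0, only the compared groups fitted, no robust fit, a replicate block, and each sample left out.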

Additional observations from a re-analysis of the deposited data

How the results depend on the processing

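In all, 904 of 960 member values kept direction and call, 35 lost the call, 5 gained it and 16 changed sign, all of the last small and uncalled. Of the called genes of the other lists, 1644 values kept the call and 132 lost it, with no change of sign. In the knockout against the senescent control, LMNB2 changed sign with no filter (-0.0115) and DESeq2 (-0.00018), and HMGB1 with upper-quartile scaling (0.0387) and METTL3 left out (0.00038). Between the knock-ins, HMGB1 did so with no filter (-0.0067). The other sign changes came from leaving out 1 sample. The log2 fold change then ran from -0.135 to 0.0646 for HMGA1 in the senescent control against control (above 0 without control sample 1). In the knockout against the senescent control it ran from -0.0101 to 0.0165 for LMNB2 and from -0.0810 to 0.0596 for HMGB1. Between the knock-ins it ran from -0.216 to 0.0892 for LBR, -0.0505 to 0.237 for TMPO, -0.0553 to 0.113 for HMGB1 and -0.0932 to 0.259 for SUV39H1. For LMNB1 in the mutant knock-in against the senescent control it ran from -0.0955 to 0.262 (below 0 without mutant sample 1).

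Called among the 10 genes, with each sample left out: 9 to 9 (senescent control against control), 2 to 3 (knockout against senescent control), 5 to 7 (wild type knock-in against knockout), 7 to 9 (mutant knock-in against knockout), 0 to 2 (between knock-ins), 10 to 10 (knockout against control), 4 to 6 (wild type knock-in against senescent control) and 6 to 7 (mutant knock-in against senescent control). Over all genes the same ranges were 5108 to 8974, 1198 to 1368, 3390 to 4150, 5873 to 6652, 123 to 1178, 5014 to 9129, 4367 to 5367 and 6864 to 7539. Between the knock-ins the fewest genes passed without mutant sample 2 (123) and wild type sample 2 (152). A lone sample in a group was assumed to vary like the other groups. With only the compared groups fitted, all-gene counts were 5621 (knockout against senescent control, from 2646), 4078 (between knock-ins, from 2103) and 5108 (knockout against control, from 7772). The cause of these moves was not tested.

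With a replicate block the counts of called members stayed at 9, 4, 8, 9, 3, 10, 6 and 7, in the order of comparisons above. Over all genes 7461, 2538, 5473, 8019, 1923, 7686, 6583 and 8860 were called with the block. EZH2 lost its call in the knockout with the block (edgeR adjusted p = 0.056). Deviations of same-numbered samples correlated from -0.12 to 0.0608, which shows no strong shared shift over all genes. Whether same-numbered samples were handled together is unknown here, and these correlations cannot decide it. Depth limits LMNB1, HMGB2 and SUV39H1 most in senescent cells.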
